A study of Homo sapiens with 4 samples.

Results

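The genes described here are HIF1A, which encodes the oxygen-regulated subunit of hypoxia-inducible factor 1, and 9 genes known as its transcriptional targets: CA9, ADM, VEGFA, NDRG1, BNIP3, EGLN3, ANKRD37, KDM3A and P4HA1. They were taken by symbol, and all 10 were found among the 59652 genes used. All of them are protein-coding in the GENCODE annotation of the human genome. RNA was sequenced from Huh7 and PLC cells, both human hepatocellular carcinoma cell lines (PLC is also called PLC/PRF/5), to find transcripts that respond to glucose. The cells of both lines carry the genotype WT and were kept for 48 h in serum-containing medium made without glucose, to which 5 mM glucose (low) or 25 mM glucose (high) was added. No label names a change of oxygen, so low and high glucose are the only treatments compared. Each line at each concentration gave 1 library, for 4 libraries in all, and no difference between a pair of libraries has a replicate check.

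HIF1A protein is made constantly and is destroyed in normal oxygen, because prolyl hydroxylases of the EGLN family mark it for the VHL ubiquitin ligase. When oxygen is low, the protein lasts, pairs with ARNT and binds short DNA sites near its targets, and this control acts on the protein rather than on HIF1A mRNA. In hepatocellular carcinoma the pathway is known for vessel growth, for glycolysis and for survival at low oxygen. The 9 targets cover several of these tasks, since VEGFA and ADM are secreted ligands, EGLN3 is a prolyl hydroxylase that acts back on HIF1A, CA9 is a membrane carbonic anhydrase that handles acid, BNIP3 drives mitophagy, P4HA1 hydroxylates collagen, KDM3A removes methyl groups from histone H3, NDRG1 is a stress-induced differentiation gene and ANKRD37 is an ankyrin repeat protein of less settled function. RNA counts do not measure HIF1A protein or its activity.

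The DNA that HIF1 binds contains ACGTG or GCGTG, and these letters were searched on both strands in promoters of RefSeq genes on GRCh38.p14, from 250 bases before to 50 bases after the start. CACGTG, which reads as ACGTG on either strand, was counted on both. Of the 10 genes, promoters of 8 were searched, and VEGFA and NDRG1 were not among them. Of the 8, 7 had at least 1 match in at least 1 promoter, while EGLN3 had none. Among all 35116 promoters of the same length, 48.4% held at least 1 match, 23.1% held 2 or more, and 21.4% held ACGTG. These shares are by promoter, while the 7 of 8 are by gene, and HIF1A and KDM3A had more than 1 promoter. The share by gene over all genes was not calculated. A stretch around matches is shown for each of the 7 genes, to let the letters be read beside the measured levels. Each runs 5′ to 3′ on the strand of the gene, with the matched bases in capitals.
HIF1A, chr14:61695299-61695323, plus strand: gctgagagcgGCGTGggctggggtg
CA9, chr9:35673900-35673924, plus strand: gtttccaatgCACGTacagcccgta
ADM, chr11:10304962-10304986, plus strand: gcaggagcgcGCGTGgctgaggaaa
BNIP3, chr10:131982032-131982060, minus strand: ccgCACGTGccaCACGCacccCACGCccc
ANKRD37, chr4:185396676-185396705, plus strand: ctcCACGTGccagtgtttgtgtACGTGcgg
KDM3A, chr2:86441335-86441359, plus strand: gggaggctgtGCGTGtcttgtgaga
P4HA1, chr10:73096938-73096962, minus strand: tgatcgagctCACGTagcgagggct
The BNIP3 promoter held the most matches, 6 in all, of which 4 lie in the stretch shown. ANKRD37 followed with 3, all in its stretch, and the other 5 genes had 1 in each promoter with a match. The starts used are those of RefSeq and can lie inside the gene positions given below. The stretches of ANKRD37, KDM3A and P4HA1 lie wholly inside those positions, as does the EGLN3 promoter that was searched. A match is only a run of letters and does not show that the factor binds there.

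Counted reads came to 21376239 for Huh7 at low glucose, 30085303 for Huh7 at high glucose, 30279716 for PLC at low glucose and 16049686 for PLC at high glucose. Paired values below give the low-glucose library first. Levels are given as FPKM, the reads of a gene scaled to its length and to the size of the library, so that genes of different length can be compared. The glucose ratio of a gene is its FPKM at 25 mM divided by that at 5 mM within a line. Its 95% interval is an exact Clopper-Pearson interval from the reads, which covers counting error only, and with 3 reads or fewer in both libraries no ratio is given. A gene was called higher or lower by the thresholds of the study, which it gave for lncRNAs. As applied here, either library of the line had to exceed 0.5 FPKM. The ratio, after 0.1 was added to both FPKM values, had to exceed 1.5 or fall short of 0.67. The study does not state which library must pass 0.5 FPKM, nor any added value. A glucose change common to both lines, and a difference between the lines, were tested on the counts of all 4 libraries with edgeR, whose adjusted p is taken over 23217 genes. That test treats the lines as replicates of the glucose contrast and the glucose concentrations as replicates of the line contrast, although neither are replicate cultures. The hepatocyte identity of the lines was checked on 10 markers, all of which had reads in both lines. Summed over the 10 markers, the level was 5378 and 5570 FPKM in Huh7 and 991 and 1895 in PLC, where it was higher at high glucose. Between the lines edgeR called 8 of them lower in PLC and KRT18 higher, and ALB, the gene of serum albumin, was at 2017 and 2039 FPKM in Huh7 against 52.4 and 72.3 in PLC. The transthyretin gene TTR, counted among the 8, had 4 and 0 reads in PLC and met the minimum for that test through Huh7 alone. The 10 markers of blood, endothelial and fibroblast cells summed to 7.19 and 7.91 FPKM in Huh7 and 1.55 and 4.62 in PLC. Of these, CD3E had 0 reads in every library, VWF and CDH5 had 2 or fewer, and PTPRC had 5 or fewer. PECAM1 was at 2.37 and 2.55 FPKM in Huh7 and 0.115 and 0.290 in PLC, CD14 at 4.20 and 4.84 in Huh7 and 0.681 and 2.95 in PLC, and COL3A1 at 0.256 and 0.305 in Huh7 and 1.30 in PLC at 25 mM, where its glucose ratio was 1.94. Scaling by TMM in place of library totals moved log2 ratios by -0.039 (Huh7) and -0.12 (PLC), and ratios below are those from library totals.

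HIF1A (ENSG00000100644, chromosome 14 from 61695513 to 61748259, plus strand, hg38) had the highest FPKM of the 10 genes in all 4 libraries and was somewhat lower at 25 mM in both lines. Its level was 90.0 FPKM at 5 mM and 72.4 at 25 mM in Huh7, and 46.6 and 38.8 in PLC. Both PLC values lay below both Huh7 values. The glucose ratio was 0.804 in Huh7 (95% interval 0.783 to 0.826, from 9909 and 11213 reads) and 0.834 in PLC (0.800 to 0.869, from 7262 and 3209 reads), inside the thresholds in both. The ratio in PLC was 1.04 times that in Huh7, with an interval of 0.987 to 1.09. In the edgeR test of a shared glucose change, HIF1A had a log2 change of -0.37 (SE 0.20, adjusted p = 0.698). Between the lines it was lower in PLC, at a log2 difference of -0.92 (SE 0.20, edgeR adjusted p = 0.00223), with FPKM ratios of PLC to Huh7 of 0.517 at 5 mM and 0.536 at 25 mM. An antisense lncRNA, HIF1A-AS1, shares 117 exon bases with it and had 0 reads in every library.

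**Figure D1:**
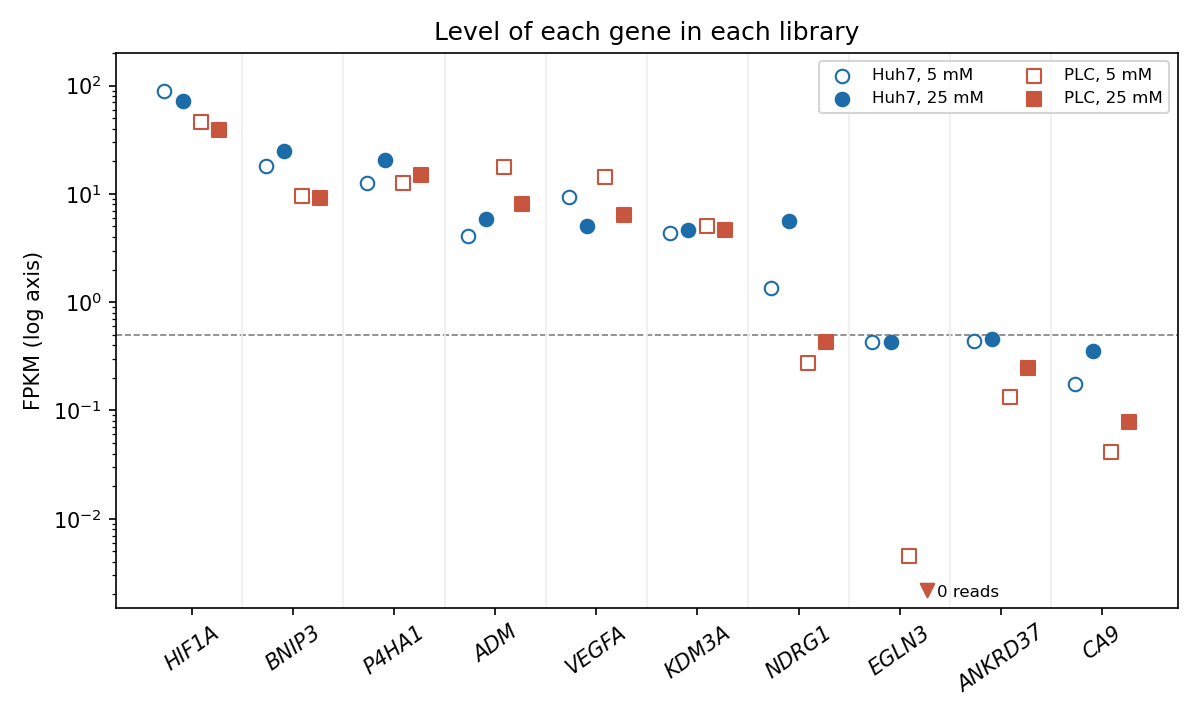
FPKM of each of the 10 genes (x axis) in each of the 4 libraries (y axis, log scale), with circles for Huh7 and squares for PLC cells, open at 5 mM and filled at 25 mM glucose, and a triangle at the bottom for a library with 0 reads. The dashed line is 0.5 FPKM, and EGLN3, ANKRD37 and CA9 stay below it in every library, while HIF1A is at 38.8 FPKM or more.

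The other subunits and regulators of HIF were described as a list of 19 genes that includes HIF1A and EGLN3. None of the 16 that could be called in Huh7 passed the thresholds, and in PLC 1 of 16 was higher and 1 was lower. Among all genes the thresholds called 27.8% in Huh7 and 43.3% in PLC. The gene higher in PLC was RBX1, the RING subunit of the VHL ligase (9.44 and 14.2 FPKM), and the lower was CREBBP, a histone acetyltransferase and HIF coactivator (7.31 and 4.67 FPKM). With 0.1 FPKM added the RBX1 ratio of 1.501 sits on the threshold, and TMM scaling put it at 1.38 and moved EP300, another coactivator, from 0.710 to 0.653, which gave 0 higher and 2 lower. EPAS1, which encodes the sister subunit HIF2A, was at 60.7 and 61.4 FPKM in Huh7 and 27.9 and 22.8 in PLC. ARNT, the dimer partner, was at 9.04 and 7.33 FPKM in Huh7 and 14.2 and 11.9 in PLC. The edgeR test called none of the 17 genes tested for glucose at an adjusted p under 0.05, nor any at an unadjusted p under 0.05. Between the lines it called 11 of 17, beside 42.9% of all genes, with ARNT, ELOB and EGLN1 higher in PLC and HIF1A, EPAS1, VHL, HIF1AN, EGLN3, CITED2, CREBBP and HSP90AA1 lower, where EGLN3 entered the test through Huh7 alone. The log2 difference was -1.27 for EPAS1 (SE 0.21, edgeR adjusted p = 0.000281) and 1.24 for EGLN1 (SE 0.28, edgeR adjusted p = 0.00267). Of the EGLN genes, EGLN1 had the most FPKM in both lines, at 7.24 and 6.29 in PLC and 2.67 and 3.08 in Huh7.

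EGLN3 (ENSG00000129521, chromosome 14 from 33924227 to 34462774, minus strand) was read almost only in Huh7. It had 67 and 95 reads there at 5 mM and 25 mM, which is 0.426 and 0.429 FPKM, and 1 and 0 reads in PLC. The lines did not overlap, and no library passed 0.5 FPKM. The glucose ratio in Huh7 was 1.01 (0.729 to 1.40), and TMM scaling moved it to the other side of 1, at 0.984 with 0.1 FPKM added. In PLC cells the reads allow no ratio. At 5 mM the level in Huh7 was 94.9 times that in PLC (exact interval 16.5 to 3804, since PLC cells had a single read), and at 25 mM it was at least 16.9-fold higher when counted against 3 reads in the PLC library. The last value leaves out the counting error of the Huh7 reads, and the exact interval at 25 mM starts at 13.5. EGLN3 passed the minimum for the edgeR test through its Huh7 reads alone, so no p between the lines is given for it. A pseudogene, EGLN3P1, had between 21 and 39 reads in each library, PLC cells included, and the counting of reads that match both is not stated.

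VEGFA (ENSG00000112715, chromosome 6 from 43770184 to 43786487, plus strand), the main growth factor of blood vessels, was lower at 25 mM glucose in both lines. Its level was 9.42 FPKM at 5 mM and 5.04 at 25 mM in Huh7, and 14.3 and 6.36 in PLC. Each high-glucose library lay below both low-glucose libraries. The ratio was 0.535 in Huh7 (0.506 to 0.566, from 2907 and 2190 reads) and 0.446 in PLC (0.421 to 0.472, from 6231 and 1474 reads). VEGFA was the only one of the 10 genes past the thresholds in both lines in the same direction, as 3.82% of all genes did downwards and 5.30% upwards, while 5.19% went past them in opposite directions. The ratio in PLC was 0.834 times that in Huh7 (0.770 to 0.903). In the test of a shared change, VEGFA had a log2 change of -1.11 (SE 0.22) and just missed the threshold with an edgeR adjusted p = 0.0563, unadjusted p = 0.000235. Over the alternatives the adjusted p ran from 0.000699 with DESeq2 to 0.99996 with edgeR when the line was left out of the model, and limma voom gave 0.0451. Between the lines VEGFA was 1.51 times as high in PLC as in Huh7 at 5 mM (1.45 to 1.58) and 1.26 times at 25 mM (1.18 to 1.35), and the edgeR adjusted p of that difference was 0.101.

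Among the relatives and receptors of VEGFA, the ligand gene VEGFB was lower at 25 mM in Huh7, at 13.5 and 7.31 FPKM, and was at 35.4 and 32.0 in PLC. PGF, which encodes placental growth factor, was at 3.73 and 4.85 FPKM in Huh7 and at 0.0341 and 0.0429 in PLC. VEGFC had 0 reads in all libraries. The endothelial receptor gene KDR had 0 reads in all 4 libraries and FLT1 had 8 or fewer. The coreceptor NRP1 was at 24.0 and 25.0 FPKM in Huh7 and 43.1 and 25.3 in PLC, past the lower threshold in PLC alone, and for it the ratio in PLC was 0.563 times that in Huh7 (0.538 to 0.590). NRP2 was at 0.764 and 0.376 FPKM in Huh7 and below 0.5 in PLC.

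ADM (ENSG00000148926, chromosome 11 from 10305073 to 10307397, plus strand), which encodes the vasodilator peptide adrenomedullin, went in opposite directions in the lines. It stood at 4.04 FPKM at 5 mM and 5.80 at 25 mM in Huh7, and at 17.9 and 8.01 in PLC. Both PLC values were above both Huh7 values, and the PLC library at 5 mM was the highest. The glucose ratio was 1.44 in Huh7 (1.21 to 1.71, from 201 and 406 reads), short of the threshold, and 0.448 in PLC (0.394 to 0.509, from 1259 and 299 reads), past it. The PLC ratio was 0.312 times the Huh7 ratio (0.253 to 0.385), the lowest of the 8 genes for which both ratios were available. The excess of PLC over Huh7 cells was 4.42-fold at 5 mM (3.81 to 5.16) and 1.38-fold at 25 mM (1.18 to 1.61). EdgeR gave a log2 difference between the lines of 1.31 (SE 0.38, adjusted p = 0.0141), which DESeq2 did not call (adjusted p = 0.0608). For a shared glucose change the edgeR adjusted p was 0.893.

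ADM2, which encodes the related peptide intermedin, was lower at 25 mM in both lines. It stood at 7.04 and 1.19 FPKM in Huh7 and 9.52 and 3.70 in PLC, from 645, 154, 1236 and 255 reads. EdgeR called it for a shared glucose change, with a log2 value of -2.03 (SE 0.33, adjusted p = 0.0186). The receptor for both peptides is built from CALCRL and a RAMP protein, and these genes were read mainly in Huh7. CALCRL was at 2.53 and 1.61 FPKM in Huh7 and 0.158 and 0.0426 in PLC, from 35 and 5 reads there. The edgeR log2 difference between the lines was -4.40. The PLC reads of CALCRL alone would not have met the minimum for that test, so no p or SE is given for it. RAMP1 was at 1.84 and 4.17 FPKM in Huh7 and had 0 reads in PLC, so that against 3 reads Huh7 cells were at least 21.2-fold higher at 5 mM and at least 25.6-fold higher at 25 mM, with exact intervals that start at 16.6 and 20.6. RAMP2 was at least 26.4-fold and at least 12.3-fold higher in Huh7 in the same way, with intervals that start at 20.8 and 9.71, and RAMP3 had 0 reads throughout.

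NDRG1 (ENSG00000104419, chromosome 8 from 133237175 to 133302022, minus strand) had the largest glucose ratio of the 10 genes and, after EGLN3, the largest difference between the lines. It was at 1.35 FPKM at 5 mM and 5.57 at 25 mM in Huh7, and at 0.275 and 0.431 in PLC. Both Huh7 libraries were above both PLC libraries. The ratio was 4.13 in Huh7 (3.68 to 4.64, from 346 and 2012 reads) and 1.57 in PLC (1.16 to 2.12, from 100 and 83 reads), where NDRG1 could not be called because it stayed under 0.5 FPKM. The PLC ratio was 0.379 times the Huh7 ratio (0.277 to 0.518). A shared log2 change of 1.34 (SE 0.36) had an edgeR unadjusted p = 0.00262 and an adjusted p = 0.159, and over the alternatives the adjusted p ran from 0.00686 without a filter on low counts to 0.99996 without the line in the model. Huh7 cells held 4.90 times the level of PLC cells at 5 mM (3.91 to 6.19) and 12.9 times at 25 mM (10.4 to 16.3). EdgeR called this difference at a log2 value of -2.99 for PLC against Huh7 cells (SE 0.37, adjusted p = 2.73e-05).

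The other NDRG genes had other patterns. NDRG2 was at 1.77 and 2.67 FPKM in Huh7 and 0.814 and 3.93 in PLC, and its ratio in PLC was 4.83 (4.07 to 5.75), 3.21 times that in Huh7 (2.573 to 3.997). NDRG2 had its larger ratio in PLC and NDRG1 in Huh7. NDRG3 was at 14.8 to 22.5 FPKM in the 4 libraries and passed no threshold. NDRG4 was at 4.08 and 6.37 FPKM in PLC and 0.373 and 0.320 in Huh7, a log2 difference of 3.89 (SE 0.32, edgeR adjusted p = 6.60e-07) in the direction opposite to NDRG1.

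**Figure D2:**
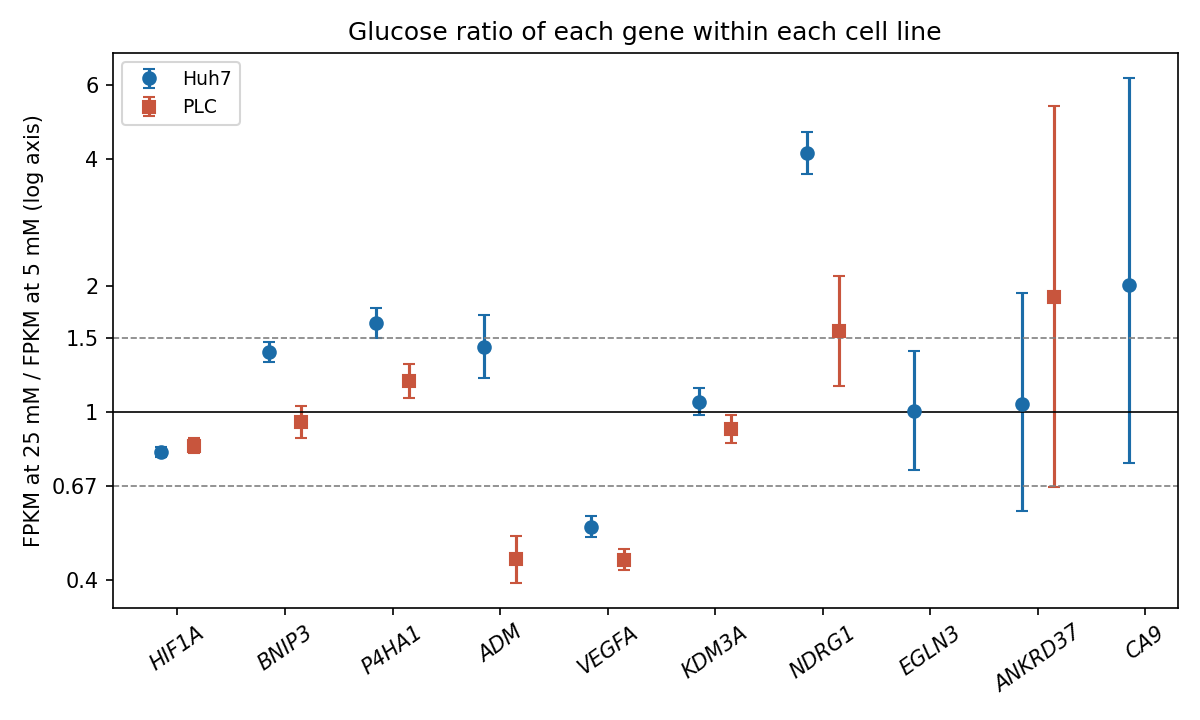
Glucose ratio of each gene (FPKM at 25 mM over FPKM at 5 mM, log axis) in Huh7 (circles) and PLC cells (squares), with bars for the 95% counting interval, a solid line at 1 and dashed lines at the thresholds 1.5 and 0.67. VEGFA lies below 0.67 in both lines, ADM lies at 1.44 in Huh7 and 0.448 in PLC, and CA9 and EGLN3 have no PLC point because both libraries held 3 reads or fewer.

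BNIP3 (ENSG00000176171, chromosome 10 from 131966455 to 131982013, minus strand), a mitophagy receptor, was higher in Huh7 than in PLC and passed no glucose threshold. It was at 18.0 and 25.1 FPKM in Huh7 at 5 mM and 25 mM, and at 9.59 and 9.10 in PLC. The lines did not overlap. Its ratio was 1.39 in Huh7 (1.32 to 1.47) and 0.949 in PLC (0.870 to 1.04), and the PLC ratio was 0.682 times the Huh7 ratio (0.617 to 0.755). PLC cells held 0.532 times the Huh7 level at 5 mM and 0.363 times at 25 mM, a log2 difference of -1.18 (SE 0.24, edgeR adjusted p = 0.00163). The table lists 39 pseudogenes named after BNIP3, of which 19 had reads, with sums of 310 and 548 reads in Huh7 (low, then high glucose) and 268 and 185 in PLC. That is at most 23.8% of the reads of BNIP3 in any library, so its counts are uncertain to the extent that shared reads were split. The paralog BNIP3L, also called NIX, was at 9.39 and 15.4 FPKM in Huh7 and 1.35 and 2.61 in PLC. BNIP3L was past the upper threshold in both lines, where its relative BNIP3 was not, with ratios of 1.64 (1.51 to 1.78) and 1.93 (1.55 to 2.40). EdgeR did not call its shared log2 change of 0.75 (SE 0.26, adjusted p = 0.362) and called its lower level in PLC, a log2 difference of -2.67 (SE 0.28, adjusted p = 4.95e-06).

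P4HA1 (ENSG00000122884, chromosome 10 from 73007217 to 73096974, minus strand), a catalytic subunit of collagen prolyl 4-hydroxylase, was at 12.7 FPKM in both lines at 5 mM. At 25 mM it was at 20.8 FPKM in Huh7 and 15.1 in PLC, so both lines were higher at high glucose. The ratio was 1.63 in Huh7 (1.503 to 1.77, from 842 and 1932 reads), past the threshold, and 1.19 in PLC (1.08 to 1.30, from 1188 and 749 reads), inside it. The PLC ratio was 0.730 times the Huh7 ratio (0.646 to 0.824). The shared log2 change of 0.40 (SE 0.25) had an edgeR adjusted p = 0.769, and the difference between the lines an adjusted p = 0.495. P4HA2, the sister catalytic subunit, was at 0.743 and 1.46 FPKM in Huh7, past the upper threshold, and at 2.72 and 3.38 in PLC. P4HA2 was higher in PLC at a log2 difference of 1.54 (SE 0.31, edgeR adjusted p = 0.00134). P4HB, the partner subunit, lay between 85.2 and 151 FPKM in the 4 libraries.

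KDM3A (ENSG00000115548, chromosome 2 from 86440647 to 86492716, plus strand) was the steadiest of the genes read over 0.5 FPKM. Its 4 libraries lay between 4.39 and 5.06 FPKM, with 4.39 and 4.66 in Huh7 and 5.06 and 4.62 in PLC. The glucose ratio was 1.06 in Huh7 (0.987 to 1.14) and 0.913 in PLC (0.845 to 0.986), and the edgeR adjusted p was 0.978 for glucose and 0.758 for the lines. The PLC ratio was 0.861 times the Huh7 ratio (0.775 to 0.955). Of its relatives, KDM3B was at 19.1 and 21.8 FPKM in Huh7 and 10.0 and 14.7 in PLC, and was lower in PLC, at a log2 difference of -0.74 (SE 0.22, edgeR adjusted p = 0.0142).

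CA9 (ENSG00000107159, chromosome 9 from 35673918 to 35681159, plus strand), often used as a marker of hypoxic tumour cells, was near the floor in every library. It had 6 and 17 reads in Huh7 and 2 and 2 in PLC, or 0.175 and 0.351 FPKM against 0.0411 and 0.0775. In Huh7 cells the ratio of 2.01 had an interval of 0.757 to 6.24, so a difference was not detectable at this depth. CA9 did not reach the minimum for the edgeR test. The row of ARHGEF39 lies on the opposite strand and shares 581 bases with CA9, which is 36.1% of its length, and it had 409 and 1036 reads in Huh7 and 247 and 812 in PLC. Whether the counting used strand is not stated, and without strand reads in the shared bases could not be told apart. The other carbonic anhydrases differed from CA9 in level. CA2, a cytosolic enzyme, was at 17.2 and 22.2 FPKM in Huh7 and 10.8 and 21.5 in PLC, past the upper threshold in PLC. CA12, another membrane enzyme, was at 2.62 and 2.12 FPKM in Huh7 and 0.288 and 0.0356 in PLC, from 61 and 4 reads there. The PLC reads of CA12 alone would not have met the minimum for the edgeR test, so no p between the lines is given for it.

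ANKRD37 (ENSG00000186352, chromosome 4 from 185396021 to 185400628, plus strand) was also under 0.5 FPKM throughout. It had 21 and 31 reads in Huh7 and 9 and 9 in PLC, or 0.436 and 0.457 FPKM against 0.132 and 0.249. The ratios of 1.05 (0.584 to 1.92) in Huh7 and 1.89 (0.664 to 5.36) in PLC both have intervals that hold 1. UFSP2 on the opposite strand shares 909 bases with it, 40.3% of its length, and had between 90 and 296 reads. The PLC reads of ANKRD37 alone would not have met the minimum for the edgeR test, so no p between the lines is given for it.

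Over the 10 genes the thresholds called NDRG1 and P4HA1 higher and VEGFA lower among 7 that could be called in Huh7, and ADM and VEGFA lower among 6 in PLC, with none higher. Among all genes the shares were 14.1% higher and 13.7% lower (Huh7), and 26.2% higher and 17.0% lower (PLC). In PLC higher calls were 60.7% of all calls with library totals and 51.3% with TMM scaling (4803 higher and 4562 lower), which left the calls of the set as they were. The median log2 ratio of the callable genes of the set was 0.47 in Huh7 against 0.04 over all 21864 callable genes, and -0.20 in PLC against 0.11 over 21749. The counting interval of the ratio lay above 1 for 4 genes and below 1 for 2 in Huh7, and above 1 for 2 and below 1 for 4 in PLC. Of all callable genes, 44.4% in Huh7 and 55.9% in PLC had an interval that excluded 1. In the edgeR test of a shared glucose change, 0 of 9 genes tested had an adjusted p under 0.05, 2 had an unadjusted p under 0.05 (VEGFA and NDRG1), and DESeq2 and limma voom each called 1. That test called 0.379% of all genes, 0.0646% higher and 0.314% lower, and 8.51% had an unadjusted p under 0.05.

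Of the 10 genes, 7 had FPKM over 0.5 in at least 1 library. For 6 of these the PLC ratio was below the Huh7 ratio, with a counting interval that excluded 1: ADM, NDRG1, BNIP3, P4HA1, VEGFA and KDM3A. For HIF1A the interval held 1, as did the wide interval of ANKRD37, and CA9 and EGLN3 had no ratio in PLC. Of all genes with reads in all 4 libraries and FPKM over 0.5 in at least 1, 48.3% had an interval that excluded 1. That share covers both directions, and the share below 1 alone was not calculated. With 1 library for each line and concentration the difference of ratios cannot be tested against a spread between cultures.

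Between the lines edgeR called ADM higher in PLC and HIF1A, NDRG1 and BNIP3 lower, while VEGFA, KDM3A and P4HA1 were not called. EGLN3 and ANKRD37 are left out here, because their PLC reads alone would not have met the minimum for that test. Of all genes 42.9% were called, 21.1% higher and 21.8% lower in PLC. With at least 10 counts required in every library, which removes EGLN3 and ANKRD37, the same test called 4 of 7 genes of the set and 39.2% of all genes. In bulk RNA of a line, fewer cells that express a gene and less RNA per cell cannot be told apart. The lines also differed in the hepatocyte markers given above, and in PLC 4 of 9 callable markers passed the upper glucose threshold and none the lower, while edgeR called 0 of 10 for a shared glucose change and 4 had an unadjusted p under 0.05. Most of the higher sum in PLC was AFP, at 306 and 1011 FPKM. CD14 and COL3A1 also passed the upper threshold in PLC. The part of this in the differences between lines or in the PLC ratios was not tested.

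**Figure D3:**
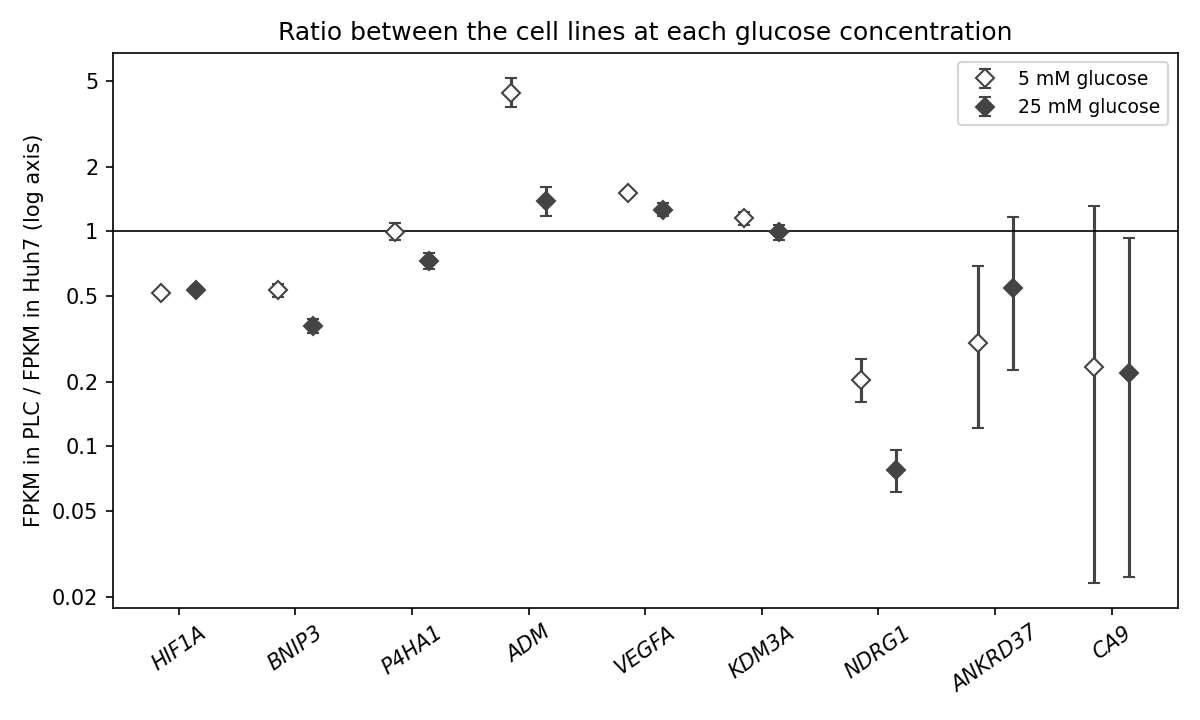
FPKM in PLC over FPKM in Huh7 (log axis) for 9 of the genes at 5 mM (open) and 25 mM glucose (filled), with bars for the 95% counting interval and a line at 1. ADM lies above 1 at both concentrations (4.42 and 1.38), HIF1A, BNIP3 and NDRG1 lie below it at both, and EGLN3 is left out because it had 1 and 0 reads in PLC.

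A wider group of 39 other hypoxia targets held genes with lower ratios than any of the set. In Huh7 cells 5 of 34 were called higher and 6 lower, and in PLC 2 of 30 higher and 5 lower, or 6 lower with TMM scaling, which added BHLHE40. These counts stand beside 27.8% (Huh7) and 43.3% (PLC) of all genes called in either direction. Lower in both lines were STC2, DDIT4, BHLHE41 and HMOX1, and higher in both was BNIP3L. STC2, which encodes the secreted glycoprotein stanniocalcin 2, was at 38.1 and 2.98 FPKM in Huh7 and 97.6 and 17.9 in PLC. DDIT4, an inhibitor of mTORC1 also known as REDD1, was at 9.11 and 1.18 FPKM in Huh7 and 31.1 and 7.52 in PLC. EdgeR called 4 of the 35 genes tested for a shared change, all lower at 25 mM, beside 0.379% of all genes. Among these the log2 change was -3.13 for STC2 (SE 0.28, adjusted p = 0.000429), -2.55 for DDIT4 (SE 0.31, adjusted p = 0.00287) and -2.02 for the circadian repressor BHLHE41 (SE 0.33, adjusted p = 0.0192). The fourth was HMOX1, the gene of heme oxygenase 1, at 10.1 and 4.12 FPKM in Huh7 and 212 and 51.4 in PLC (edgeR adjusted p = 0.0093). EPO, the classic hypoxia target erythropoietin, was singled out after its values were seen: it had 6 and 84 reads in Huh7, a ratio of 9.95 (4.38 to 27.9), and 0 and 2 in PLC, too few for a ratio. No gene of this group passed the thresholds in opposite directions in the lines.

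**Figure D4:**
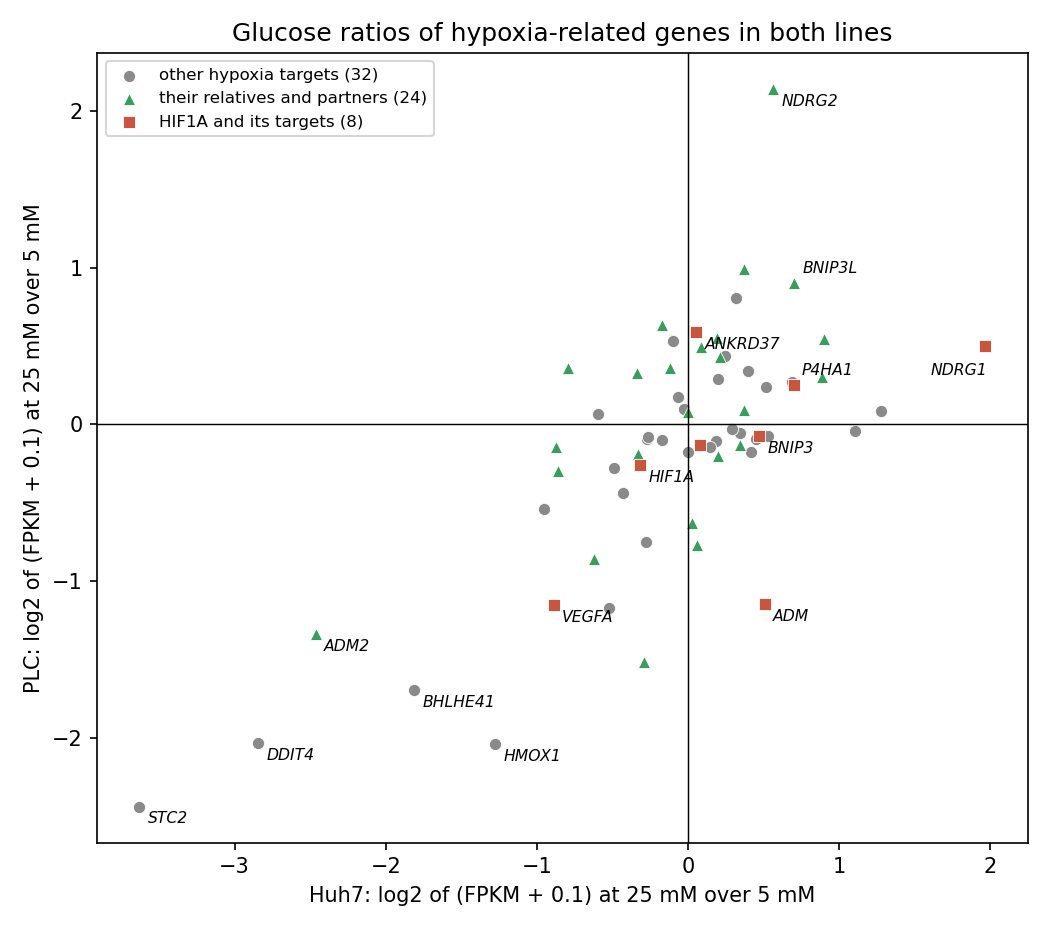
Log2 of the glucose ratio, with 0.1 FPKM added, in Huh7 (x axis) and PLC cells (y axis) for 8 of the 10 genes (squares), 24 relatives and partners of theirs (triangles) and 32 other hypoxia targets (circles) with over 3 reads in a library of each line. VEGFA lies in the lower left with STC2, DDIT4, BHLHE41, HMOX1 and ADM2, ADM lies in the lower right, and NDRG1 lies far to the right.

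A list of 21 glycolytic genes that HIF1 is known to regulate was mixed. In Huh7 cells 2 of 18 were higher and 1 lower, from ENO2, a neuronal enolase, at a ratio of 0.475 to PDK1, the kinase that inhibits pyruvate dehydrogenase, at 1.68, both with 0.1 FPKM added. In PLC cells 5 of 19 were higher and 5 lower, from the hexokinase gene HK2 at 0.110 to PFKFB4, a regulator of phosphofructokinase, at 3.55. Of all genes 27.8% (Huh7) and 43.3% (PLC) were called, and TMM scaling took 1 higher call from each line, LDHA in Huh7 (1.53 to 1.49) and PGAM1 in PLC (1.53 to 1.40). PDK1 was at 2.15 and 3.67 FPKM in Huh7 and 2.22 and 1.93 in PLC. EdgeR called 1 of 21 for a shared change, the glucose transporter gene SLC2A3 (adjusted p = 0.0094), which had 2 and 2 reads in Huh7, so that its call rests on the PLC libraries at 80.8 and 16.7 FPKM.

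For 7 of the 10 genes the gene with the closest pattern over the 4 libraries was found among 9779 genes with at least 100 reads in every library, as the smallest Euclidean distance between log2 levels, with 0.1 FPKM added and each gene's mean removed. The nearest to HIF1A was INPP5E, a phosphoinositide phosphatase, at a distance of 0.0117, with 2.85 and 2.30 FPKM in Huh7 (low, then high glucose) and 1.44 and 1.18 in PLC. The nearest to VEGFA was AP5Z1, an adaptor protein subunit, at 0.0589, and the nearest to KDM3A was SPRTN, a DNA repair protease, at 0.0209. ADM had no neighbour as close, the nearest being FOXO3B at 0.262, and NDRG1 the least close of all, LINC02432 at 0.808. The others were PLAGL2 for BNIP3 (0.0891) and INAVA for P4HA1 (0.135). No neighbour is given for EGLN3, ANKRD37 and CA9, whose levels in PLC, at 0.249 FPKM or less, are of the order of the added 0.1 FPKM. NDRG1, at 0.275 and 0.431 FPKM in PLC, is also not far above that value, and its distance carries the same limit. Of the set, 6 genes had the reads to be candidates themselves, and none of them was the nearest neighbour of another. A distance over 4 libraries is a description, and the libraries share their lines and depths.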

How the data were processed

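Total RNA of Huh7 and PLC cells was depleted of rRNA and made into directional libraries, 1 for each line and glucose concentration. The authors deposited raw counts of reads per gene, made with HISAT2 and featureCounts on hg38 according to the submitters' processing notes. Versions, annotation release and strand setting are not given in the sources used here. The table held 59657 lines, of which 5, a broken ANK2 entry, were left out. No column belonged to another sample.

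FPKM was calculated from the count, the table's gene length (merged exons) and the library total. Depth was 16049686 to 30279716 reads, and 3 reads served as the floor for each library. Intervals are exact Clopper-Pearson at 95% (Wald on the log scale for the ratio of ratios) and cover counting error only. EdgeR 4.0.16 (quasi-likelihood, TMM, filterByExpr, Benjamini-Hochberg over all genes) was fitted in R 4.3.3 with line and glucose as terms, which leaves little information on the spread. The SE beside an edgeR log2 value is the size of that value divided by the square root of the quasi-likelihood F. It was thus derived from the test and is not a separate estimate of error. DESeq2 1.42.0 and limma 3.58.1 were alternatives. Further alternatives were RLE size factors, all genes kept, only genes with 10 or more counts in every library, a model without the other term, pseudocounts of 0 and 1, other FPKM and ratio limits, at least 20 reads, and TMM or DESeq2 scaling of the ratios, the last for the other gene lists chosen after seeing the data.

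The genes of the set and the lists were chosen with earlier results of these data known. All 10 are given in full. HIF regulators and relatives could be named freely, other hypoxia targets by the largest mean log2 ratio among those called the same way in both lines with at least 20 reads (up to 4 in each direction), glycolytic genes only as the lowest and highest, and the nearest neighbour of each of the 10, given for 7. LDHA and PGAM1 were named after their values were seen. PDK1's levels, SLC2A3 and EPO go beyond the rule or were chosen after the values were seen. A listed gene is not reported here.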

Additional observations from a re-analysis of the deposited data

Results flagged for a closer look

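ADM stood out because its glucose ratio went in opposite directions in the lines, higher at 25 mM in the pair of Huh7 libraries and lower in the pair of PLC libraries. The PLC ratio was 0.312 times the Huh7 ratio (counting interval 0.253 to 0.385). This difference was not tested, because 1 library for each line and concentration leaves nothing to estimate a spread from. Groups of 1 library could not be searched for samples far from the others.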

How the results depend on the processing

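The genes called by the thresholds were the same in both lines under pseudocounts of 0 and 1, higher FPKM limits, at least 20 reads and both other scalings, namely NDRG1, P4HA1 and VEGFA in Huh7 cells and ADM and VEGFA in PLC cells. With a ratio over 2 or under 0.5 the Huh7 calls fell from 3 to 1, NDRG1. The number of genes of the set called for a shared glucose change was 0, but 2 without a filter on low counts (VEGFA and NDRG1), 1 with DESeq2 and 1 with limma voom (VEGFA). Over all genes the shared change gave 88 calls, against 526 without a filter, 27 with at least 10 counts in every library, 194 with DESeq2 and 0 without the line in the model. The line difference gave 9969 calls over all genes, and 6340 with at least 10 counts in every library, where fewer genes were tested. Within the set it gave 5 calls, EGLN3 included, or 4 with at least 10 counts in every library, where EGLN3 was not tested, and 4 with DESeq2, which did not call ADM. Of 72 single ratios recomputed, 63 stayed inside their counting interval and 9 fell outside it. In PLC cells HIF1A (0.767 with TMM) and VEGFA (0.414 with TMM) fell outside under both other scalings, and KDM3A with TMM. With a pseudocount of 1, VEGFA and NDRG1 fell outside in both lines. No called ratio changed direction, while EGLN3 in Huh7, which was not called, crossed 1 under both other scalings. The 6 differences of ratio held under both scalings. No paired analysis was possible because each group holds 1 library and the labels give no replicate numbers. No replicate could be left out. CA9, ANKRD37 and EGLN3 are limited by depth, with 95 reads or fewer in each library.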
